A study of Homo sapiens with 58 samples.

Results

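The regulatory elements (REs) around 8 transcription factor genes of the developing face were examined for their response to SOX9 dosage: PRRX1, PRRX2, PAX3, PAX7, PAX9, PITX1, BARX1 and SIX2. An RE was counted as a member if its midpoint lay inside the body of one of these genes or within 100,000 bp of one of its GENCODE v44 start sites (hg38). This rule used position only and gave 195 of 151,457 REs: 41 at PRRX2, 32 at PAX7, 29 at PAX3, 29 at SIX2, 25 at PRRX1, 16 at BARX1, 15 at PAX9 and 8 at PITX1. REs were numbered within each locus in order of position, so that PAX7-RE32 is the RE with the highest coordinate at PAX7. A neighbouring gene shares many of these windows, and for 74 of the 195 REs the nearest coding start site belonged to another gene. Position near a gene was the sole link between an RE and that gene.

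The data were ATAC-seq counts, that is, reads of fragments cut by the Tn5 transposase in open chromatin, from cranial neural crest cells (CNCCs) derived in culture from the H9 line, a widely used line of human embryonic stem cells. SOX9-tagged CNCCs carried the FKBP12-F36V–mNeonGreen–V5 tag on both alleles at the carboxy terminus of SOX9, in clones S9CC13 and S9CC47, and the small molecule dTAGV-1 recruits a ubiquitin ligase to that tag. SOX9-tagged CNCCs were treated for 48 h with dTAGV-1 at 0, 0.5, 1.6, 5, 16 or 500 nM, for which the labels give SOX9 levels of 100, 77.9, 51.7, 25.8, 8.14 and 0.95%, with 7 replicates each (4 of S9CC13 and 3 of S9CC47). The 7 replicates came from 6 differentiation batches, as both clones had a replicate in R6. Untagged wild-type (WT) CNCCs were treated for 48 h with 0 or 500 nM (n = 2 each). A time course in both genotypes compared vehicle (DMSO) for 24 h with 500 nM for 3 h or 24 h (n = 2 each). All SOX9-tagged samples carried the tag, those without dTAGV-1 included, and each tagged line is a single edited clone. The degrader was added after differentiation, so SOX9 was present while the CNCCs formed. For replicate R14 the titles and the concentration labels of the 0 and 0.5 nM samples disagreed, and the titles, which match the labelled SOX9 levels, were used.

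SOX9 is a transcription factor of the HMG box class that binds DNA at ACAA-containing sites and is required for the formation of neural crest and cartilage. The 8 genes encode factors of the paired, paired-like, BarH-like and sine oculis families, which together pattern the mesenchyme that the cranial crest forms in the face. PAX3 and PAX7 have a paired domain and a homeodomain and act in crest induction, whereas PAX9 has a paired domain without a homeodomain and acts in tooth and palate formation. PRRX1 and PRRX2 mark facial and limb mesenchyme, PITX1 acts in the jaw and the hindlimb, BARX1 in the branchial arches and tooth-forming mesenchyme, and SIX2 in the frontonasal mesenchyme and the kidney.

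The DNA of 6 REs on which the results turn is shown first, each as its central 240 bases (plus strand, hg38), with the letters ACAAAG or ACAATG, or their reverse complements CTTTGT and CATTGT, in capitals. Both cores begin with ACAA, and both strands were searched. PITX1-RE8 (chr5:135127509-135127748) and PRRX2-RE5 (chr9:129580289-129580528), which had large losses at 500 nM, each held 1 core.
PITX1-RE8: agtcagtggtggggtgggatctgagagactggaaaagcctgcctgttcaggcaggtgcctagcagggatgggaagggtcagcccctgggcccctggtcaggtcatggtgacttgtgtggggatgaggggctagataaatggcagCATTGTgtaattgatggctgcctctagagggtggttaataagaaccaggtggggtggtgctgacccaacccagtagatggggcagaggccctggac
PRRX2-RE5: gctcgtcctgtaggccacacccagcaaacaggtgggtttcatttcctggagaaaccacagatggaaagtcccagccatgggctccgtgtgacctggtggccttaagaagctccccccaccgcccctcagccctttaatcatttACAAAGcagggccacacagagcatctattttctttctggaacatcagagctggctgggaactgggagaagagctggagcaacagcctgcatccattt

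PAX3-RE16 (chr2:222291043-222291282) and PAX7-RE32 (chr1:18738242-18738481) were the REs with the strongest statistical support for a loss at their loci and were among the most accessible members. Each RE held 1 core, which at PAX7-RE32 lay outside the stretch printed.
PAX3-RE16: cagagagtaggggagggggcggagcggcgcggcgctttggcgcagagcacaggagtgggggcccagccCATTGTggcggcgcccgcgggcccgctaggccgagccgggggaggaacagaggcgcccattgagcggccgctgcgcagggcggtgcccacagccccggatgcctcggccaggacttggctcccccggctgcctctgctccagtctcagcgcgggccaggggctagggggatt
PAX7-RE32: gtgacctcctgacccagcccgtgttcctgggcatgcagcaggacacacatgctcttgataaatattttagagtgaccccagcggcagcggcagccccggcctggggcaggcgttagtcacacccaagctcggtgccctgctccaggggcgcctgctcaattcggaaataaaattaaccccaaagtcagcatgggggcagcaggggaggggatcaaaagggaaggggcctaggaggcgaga

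PAX9-RE15 (chr14:36748662-36748901) had the largest gain and held 2 cores, 1 of them in the stretch printed. PRRX2-RE23 (chr9:129665352-129665591) is the promoter RE of PRRX2, which also rose, and its sequence held no core.
PAX9-RE15: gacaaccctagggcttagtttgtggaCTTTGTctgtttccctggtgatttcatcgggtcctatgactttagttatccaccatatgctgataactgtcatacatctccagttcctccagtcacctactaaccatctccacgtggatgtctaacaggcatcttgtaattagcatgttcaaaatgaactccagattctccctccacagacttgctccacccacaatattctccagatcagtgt
PRRX2-RE23: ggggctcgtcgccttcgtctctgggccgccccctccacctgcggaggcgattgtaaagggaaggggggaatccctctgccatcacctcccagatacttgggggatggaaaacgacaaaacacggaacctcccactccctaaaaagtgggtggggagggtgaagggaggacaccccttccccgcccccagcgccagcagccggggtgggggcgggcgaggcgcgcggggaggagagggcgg

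Over REs of the common length of 501 bp, a core was present in 46.9% of all 123,778 and in 60 of 142 members (42.3%). Among these members it was present in 15 of 23 called lower at 500 nM (65.2%), 3 of 9 called higher (33.3%) and 42 of 110 not called (38.2%). Over all REs of this length the shares were 61.0%, 45.3% and 44.6%, in the same order. Cores facing each other (a forward core, 3 to 5 bases, then a reverse core) were found in no member, against 0.203% of all REs of this length. These are matches of letters in a window and do not show binding.

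Totals over REs ran from 22,905,782 to 81,040,023 counts per sample. The member REs had a median of 195.4 counts per sample on average, the least covered a mean of 37.8, and the lowest single count was 4. Promoter accessibility at 0 nM, in counts scaled to library size by the TMM method (CPM) and divided by RE length in kb, was 35.8 to 121 at the crest genes TFAP2A, TFAP2B, TWIST1, NR2F1 and SOX9, against a median of 13.8 over promoter REs of coding genes. The crest gene SOX10 lay below that median, at 3.26. Promoter accessibility was 2.56 at the pluripotency gene POU5F1 and 4.33 and 4.27 at the neuroectoderm genes SOX1 and OTX2. The neuroectoderm gene PAX6, at 18.3, lay above the median. No RE lay at a NANOG start site. In bulk samples, fewer cells with an open RE and a less open RE in every cell cannot be told apart.

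At 500 nM for 48 h, 30 of the 195 member REs were lower (15.4%) and 21 were higher (10.8%), where called means an edgeR quasi-likelihood test with an adjusted p below 0.05 over all REs. Over all REs, 13.9% were lower and 10.2% higher, so the 8 loci together were close to the background. The median log2 fold change was 0.00 over the members and 0.02 over all REs. The loci did not share a direction. PAX7 had 13 lower and none higher of 32, whereas PRRX1 had none lower and 6 higher of 25.

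**Figure D1:**
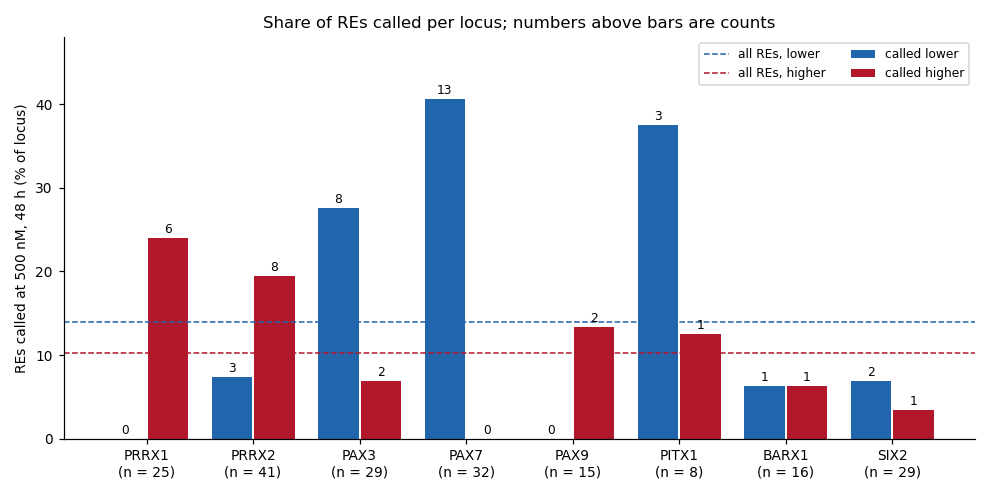
Share of the REs of each locus called lower (blue) or higher (red) at 500 nM against 0 nM after 48 h, in percent of the REs of the locus, with counts above the bars and the shares over all REs as dashed lines. PAX7 (13 of 32), PITX1 (3 of 8) and PAX3 (8 of 29) lay above the dashed line for lower REs, and PRRX1 (6 of 25), PRRX2 (8 of 41), PAX9 (2 of 15) and PITX1 (1 of 8) above that for higher REs.

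Of the 57 members in an intron of a coding gene, 15 were lower (26.3%) and 7 higher (12.3%), against 16.5% and 11% of all REs in such introns. In an intron of the named gene itself lay 47 of them, with 14 lower and 5 higher. Most of these 14 were at PAX7, so the share of lower intronic REs rests largely on that locus. Of the 43 within 1,000 bp of the start site of any gene, 4 were lower (9.3%) and 5 higher (11.6%), against 8.76% and 6.42% of all such REs. The 19 at a start site of 1 of the 8 genes included none called lower and 2 called higher. Of the 91 outside coding genes, 11 were lower (12.1%) and 9 higher (9.89%), against 15.1% and 12.1%. The 4 exonic REs ran from 0.03 to 0.31 in log2 fold change without passing the test.

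**Figure D2:**
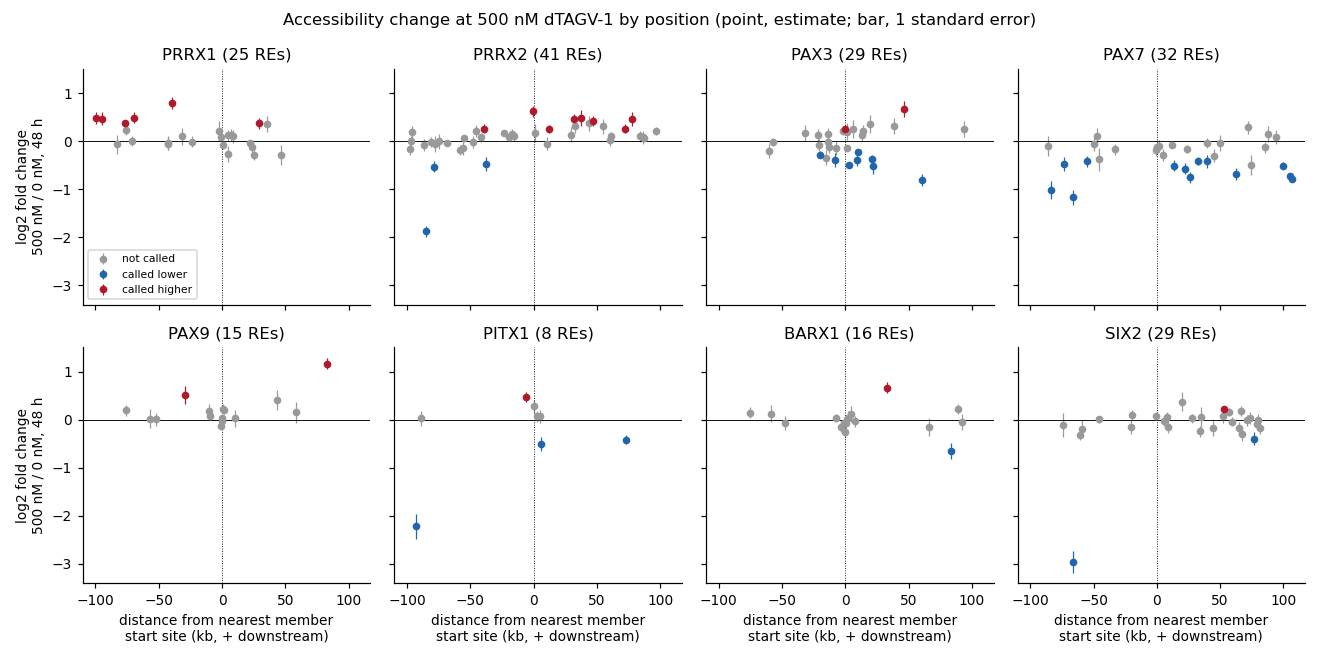
Log2 fold change at 500 nM against 0 nM (48 h) of each member RE by its distance in kb from the nearest start site of its gene, positive downstream, with bars of 1 standard error (SE) and calls in blue (lower) and red (higher). The largest losses, SIX2-RE28 (−2.96), PITX1-RE8 (−2.22) and PRRX2-RE5 (−1.88), lay upstream of the start sites; the blue points at PAX7 spread over the flank and the gene body.

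PAX7 (chr1:18630846-18748866, plus strand) had the highest share of lower REs of the 8 loci, 40.6% against 13.9% of all REs, and a median log2 fold change of −0.29. Of the 13 lower REs, 9 were intronic and 4 lay upstream, and 12 were lower in 7 of 7 replicates; PAX7-RE3 was lower in 6 of 7. The RE with the lowest adjusted p was the intronic PAX7-RE32 (chr1:18738112-18738612, 106,838 bp downstream of the nearest start site). Its accessibility without dTAGV-1 ranged from 34.6 to 51.9 CPM, with a median of 39.0, and at 500 nM from 16.8 to 32.1 CPM, with a median of 26.7. Every 500 nM sample lay below every 0 nM sample, and the log2 fold change was −0.78 (SE 0.06, edgeR adjusted p = 1.0e-09). Its neighbour PAX7-RE31 fell by 0.73 on the log2 scale (SE 0.07, edgeR adjusted p = 1.4e-08), from a median of 37.6 to 26.9 CPM, with groups that overlapped (lowest 32.4 CPM without and highest 32.8 CPM with dTAGV-1).

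PAX7-RE18, in an intron 25,924 bp downstream of the start site, ran from 7.15 to 13.2 CPM (median 9.72) without dTAGV-1 and from 4.37 to 7.00 CPM (median 5.38) at 500 nM. The groups did not overlap, and the log2 fold change was −0.75 (SE 0.11, edgeR adjusted p = 6.5e-06). The largest fold change of the locus was at PAX7-RE4, 65,941 bp upstream (log2 fold change −1.17, SE 0.16, edgeR adjusted p = 4.1e-06). Its samples spread widely, from 1.29 to 8.00 CPM (median 2.12) at 0 nM and from 0.592 to 3.91 CPM (median 0.901) at 500 nM. The groups overlapped, although each of the 7 replicates was lower than its own 0 nM sample.

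PAX3 (chr2:222199887-222298998, minus strand) had 8 lower and 2 higher of 29 REs. PAX3-RE16 (chr2:222290913-222291413), in an intron 3,031 bp downstream of the start site, was the most accessible member per kb at 0 nM (97.5 CPM per kb, above 99.3% of all REs). It ran from 39.1 to 69.4 CPM (median 46.1) at 0 nM and from 26.5 to 51.0 CPM (median 33.1) at 500 nM. The groups overlapped, yet all 7 replicates were lower, with a log2 fold change of −0.50 (SE 0.06, edgeR adjusted p = 2.3e-07). PAX3-RE2, 60,269 bp downstream of the start site, fell by 0.81 on the log2 scale (SE 0.13, edgeR adjusted p = 3.6e-05), from a median of 5.01 to 3.15 CPM. Higher REs were PAX3-RE3, 46,724 bp downstream (log2 fold change 0.67, SE 0.16, edgeR adjusted p = 0.0028), and the promoter RE described below. PAX3-RE3 had a median of 1.58 CPM (0.886 to 3.27) at 0 nM and 2.61 CPM (1.34 to 5.22) at 500 nM, with overlapping groups.

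PAX9 (chr14:36657568-36679362, plus strand) differed from the other PAX loci in that none of its 15 REs was lower and 2 were higher. PAX9-RE15 (chr14:36748532-36749032) had the largest gain of all members and lay 82,792 bp downstream, in an intron of SLC25A21, which encodes a mitochondrial carrier. It ran from 1.12 to 3.04 CPM (median 1.66) at 0 nM and from 2.26 to 6.13 CPM (median 3.48) at 500 nM. The overlap came from 1 high 0 nM sample, replicate R8 of S9CC47, whose own 500 nM sample was higher still. The log2 fold change was 1.17 (SE 0.12, edgeR adjusted p = 7.6e-08), with 7 of 7 replicates higher. PAX9-RE4, 29,462 bp upstream, had a log2 fold change of 0.52 (SE 0.18, edgeR adjusted p = 0.033).

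At PRRX1 (chr1:170662728-170739421, plus strand) the calls at 48 h went in the opposite direction to those at PAX7. Of its 25 REs, 6 were higher (24.0% against 10.2% of all REs) and none lower, with a median log2 fold change of 0.10. The PRRX1 REs called at 3 h, described below, were all lower. Of these 6, 5 lay 39,296 to 99,681 bp upstream and PRRX1-RE20 was intronic. PRRX1-RE10 (39,296 bp upstream) ran from 1.61 to 2.78 CPM (median 2.35) at 0 nM and from 3.07 to 4.39 CPM (median 4.17) at 500 nM. It was the only one of the 21 higher members whose 0 and 500 nM samples did not overlap (log2 fold change 0.80, SE 0.13, edgeR adjusted p = 4.3e-05). PRRX1-RE4 (chr1:170585682-170586825, 76,474 bp upstream) had the lowest adjusted p of the locus. It ran from 21.5 to 30.0 CPM (median 23.7) at 0 nM and from 22.5 to 39.1 CPM (median 32.3) at 500 nM, with overlap, and was higher in 7 of 7 replicates (log2 fold change 0.39, SE 0.06, edgeR adjusted p = 3.9e-05). For 4 of the 5 upstream REs, all but PRRX1-RE10, the nearest coding start site was that of GORAB.

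The paralogue PRRX2 (chr9:129665647-129722674, plus strand) likewise had more higher REs (8 of 41) than lower ones (3 of 41), and 4 of the 8 were in its introns. The lower ones were PRRX2-RE7, 78,742 bp upstream (log2 fold change −0.53, SE 0.11, edgeR adjusted p = 5.8e-04), PRRX2-RE18, at a promoter of NTMT1 (−0.48, SE 0.15, edgeR adjusted p = 0.017), and PRRX2-RE5 (chr9:129580159-129580659, 85,238 bp upstream and 28,475 bp from the NTMT1 start site, between genes). The accessibility of PRRX2-RE5 ran from 5.65 to 14.5 CPM (median 9.36) at 0 nM and from 1.59 to 4.44 CPM (median 2.28) at 500 nM. The groups did not overlap, and the log2 fold change was −1.88 (SE 0.11, edgeR adjusted p = 2.7e-12), the lowest adjusted p of any member. PRRX2-RE28 and PRRX2-RE30, both intronic, rose by log2 fold changes of 0.46 and 0.49 (edgeR adjusted p = 7.4e-04 and 0.035).

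PITX1 (chr5:135027734-135034813, minus strand) had few REs, 8, of which 3 were lower and 1 higher. PITX1-RE8 (chr5:135127379-135127879) lay 92,816 bp upstream, within 1,000 bp of a start site of the antisense transcript PITX1-AS1. It was weakly accessible, from 0.855 to 2.86 CPM (median 1.64) at 0 nM, and fell to between 0.123 and 0.688 CPM (median 0.386) at 500 nM. No 500 nM sample reached the lowest 0 nM sample (log2 fold change −2.22, SE 0.26, edgeR adjusted p = 4.2e-07). PITX1-RE6 (chr5:135040281-135041176, 5,916 bp upstream, at a start site of the non-coding gene EPIST) went the other way, from a median of 5.72 CPM (4.46 to 7.15) to 8.27 CPM (6.72 to 9.67). Its groups overlapped, and the log2 fold change was 0.48 (SE 0.11, edgeR adjusted p = 0.0014).

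At BARX1 (chr9:93951627-93955355, minus strand), 1 of 16 REs was lower and 1 higher. BARX1-RE3 (chr9:93869778-93870278, 83,403 bp downstream) ran from 1.26 to 2.44 CPM (median 1.92) at 0 nM and from 0.931 to 1.43 CPM (median 1.13) at 500 nM (log2 fold change −0.65, SE 0.16, edgeR adjusted p = 0.0042). BARX1-RE5 (chr9:93920085-93920864, 32,956 bp downstream) ran from 1.97 to 6.68 CPM (median 3.91) and then from 2.66 to 9.48 CPM (median 6.16; log2 fold change 0.67, SE 0.11, edgeR adjusted p = 4.2e-05). Both pairs of groups overlapped, with all 7 replicates moving the same way at each RE.

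SIX2 (chr2:45005182-45009452, minus strand) had 29 REs, of which 26 passed no test at 500 nM, and the largest single loss of the 195 members. SIX2-RE28, upstream of the gene and between genes, ran from 1.68 to 4.88 CPM (median 3.86) at 0 nM and from 0.273 to 0.695 CPM (median 0.450) at 500 nM. The groups did not overlap, and the log2 fold change was −2.96 (SE 0.22, edgeR adjusted p = 1.7e-10). The other calls, SIX2-RE4 (chr2:44932055-44932555; log2 fold change −0.39, SE 0.13, edgeR adjusted p = 0.031) and SIX2-RE12 (chr2:44955537-44956493; 0.22, SE 0.07, edgeR adjusted p = 0.022), lay nearer to the start site of SIX3. SIX2-RE12 moved from a median of 14.3 CPM (12.6 to 15.4) to 17.3 CPM (14.7 to 18.5), with overlap.

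Across the 8 loci, 6 of the 51 called REs had 0 and 500 nM samples that did not overlap: SIX2-RE28, PITX1-RE8, PRRX2-RE5, PAX7-RE32 and PAX7-RE18 below, and PRRX1-RE10 above. This was 5 of the 30 lower REs (16.7%) and 1 of the 21 higher ones (4.76%), against 24.1% of all REs called lower and 6.55% of all called higher. With the replicate block, in which each clone and differentiation is its own control, the count was 37 lower and 27 higher, against 16.8% and 13.9% of all REs under the same fit. The number of higher REs depended on replicate R8 of S9CC47, without which 13 were called. The batch term of the model mattered more, because without it 11 members were lower and 4 higher.

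The intermediate concentrations asked at which SOX9 level these REs began to move. All 5 comparisons used the same 0 nM samples, so their calls are not independent. At 16 nM (8.14% SOX9), 12 members were lower and 10 higher, against 9.12% and 7.12% of all REs; with the replicate block 48 were called in place of 22, against 26.1% of all REs. At 5 nM (25.8% SOX9), 6 were lower and 1 higher, against 4.24% and 1.08%. The 6 were SIX2-RE28, PITX1-RE8, PRRX2-RE5, PAX7-RE18, PAX3-RE2 and PITX1-RE1, and the higher one was PAX9-RE15.

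At 1.6 nM (51.7% SOX9) edgeR called none of the members, against 0.0383% of all REs, with 7 at an unadjusted p below 0.05, 1 with the replicate block and none by DESeq2. At 0.5 nM (77.9% SOX9) it called none, against 0.0% of all REs, with 6 at an unadjusted p below 0.05 and none by DESeq2. An unadjusted p below 0.05 also arises by chance, and the share of all REs below it is not reported here.

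SIX2-RE28 had means of 3.55 ± 1.17, 3.19 ± 1.06, 2.65 ± 1.04, 1.39 ± 0.272, 0.627 ± 0.217 and 0.468 ± 0.162 CPM (SD, n = 7) from 0 to 500 nM. The log2 fold changes were −0.42 at 1.6 nM (edgeR adjusted p = 0.58), −1.31 at 5 nM (5.4e-06) and −2.52 at 16 nM (2.3e-07). PITX1-RE8 had log2 fold changes of −0.38, −1.08 and −1.94 at 1.6, 5 and 16 nM (edgeR adjusted p = 0.80, 4.9e-04 and 1.3e-05).

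PRRX2-RE5 fell from 9.48 ± 2.78 CPM at 0 nM to means of 5.17 ± 1.70 (5 nM), 3.88 ± 1.19 (16 nM) and 2.65 ± 1.09 CPM (500 nM; SD, n = 7). By contrast, PAX7-RE32 had means of 41.8 ± 7.71, 36.9 ± 7.19, 31.6 ± 5.75 and 24.7 ± 5.83 CPM at the same 4 concentrations. Its log2 fold change was −0.17 at 5 nM (edgeR adjusted p = 0.11) and −0.40 at 16 nM (2.9e-05), against −0.78 at 500 nM. The 16 nM mean of PAX7-RE32 lay about midway between those at 0 and 500 nM, whereas that of SIX2-RE28 lay close to its 500 nM mean.

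Within PAX7 the REs differed in this respect. PAX7-RE18 had log2 fold changes of −0.47, −0.58 and −0.75 at 5, 16 and 500 nM, whereas PAX7-RE4 had 0.11, −0.45 and −1.17, and PAX7-RE30 had −0.07, −0.12 and −0.51. Of the 13 PAX7 REs lower at 500 nM, 4 were called at 16 nM and 1 at 5 nM. The median over the 32 REs of the locus was 0.00 at 0.5 and 1.6 nM and then −0.06, −0.12 and −0.29 at 5, 16 and 500 nM. The differences between REs in the shape of their courses were not tested.

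Among REs that rose, PAX9-RE15 was called from 5 nM on, with log2 fold changes of 0.65, 1.02 and 1.17 at 5, 16 and 500 nM (edgeR adjusted p = 0.0043, 4.0e-06 and 7.6e-08). PRRX1-RE4 had 0.15, 0.35 and 0.39 and PRRX1-RE10 had 0.29, 0.61 and 0.80, both called at 16 nM and 500 nM. BARX1-RE5 had 0.33, 0.50 and 0.67 and was called at the same 2 concentrations.

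**Figure D3:**
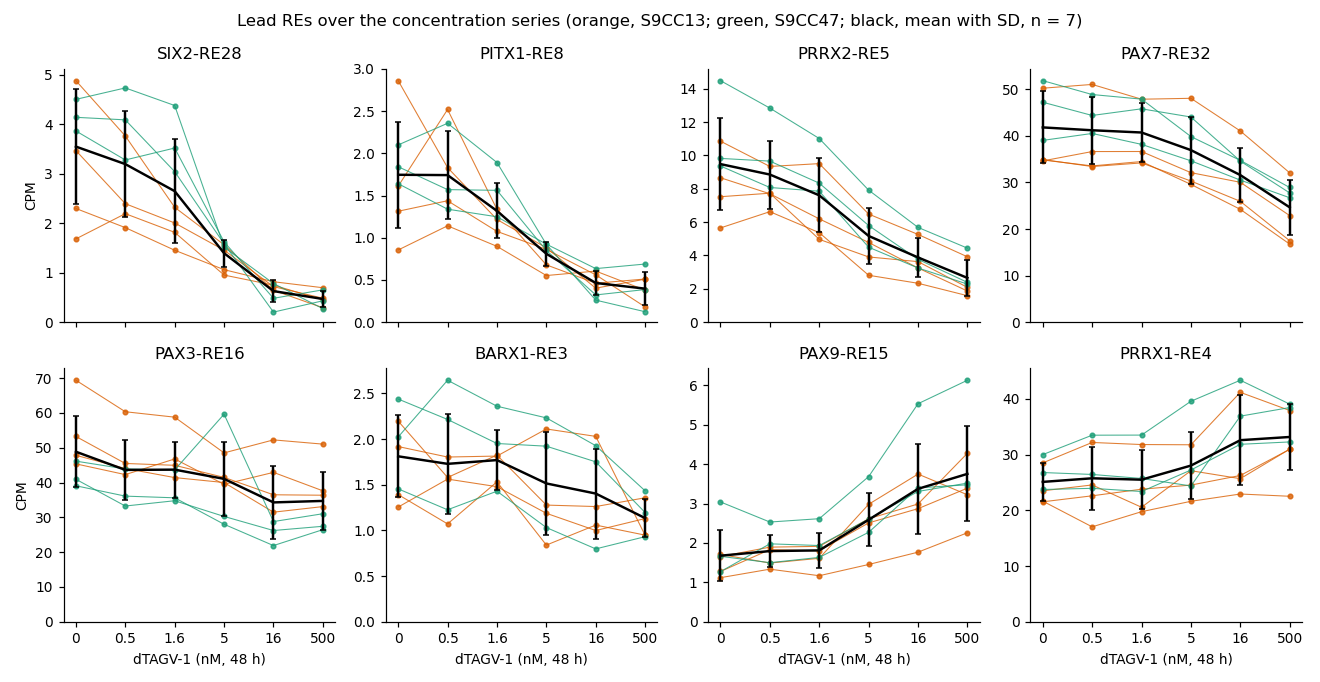
Accessibility in CPM of 8 REs after 48 h at 6 concentrations of dTAGV-1, with a line per replicate (orange, S9CC13; green, S9CC47) and the mean with SD in black (n = 7). The mean of SIX2-RE28 went from 3.55 at 0 nM to 0.468 at 500 nM and that of PAX9-RE15 from 1.68 to 3.76; PAX7-RE32 went from 41.8 at 0 nM through 40.7 at 1.6 nM to 24.7 at 500 nM.

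Each gene was also represented by its most accessible promoter RE. At 0 nM these were most accessible at SIX2-RE22 (72.3 CPM per kb), PRRX1-RE12 (45.2), PAX9-RE9 (43.9) and PAX3-RE18 (32.6), followed by PAX7-RE11 (15.4) and PRRX2-RE23 (11.3), with BARX1-RE11 (5.72) and PITX1-RE5 (5.01) below the promoter median of 13.8. PAX7-RE11, in the middle of this order, was at 12.7 to 25.8 CPM (median 18.6) at 0 nM and at 11.3 to 24.4 CPM (median 17.4) at 500 nM. Its log2 fold change of −0.11 (SE 0.08, edgeR adjusted p = 0.38) did not pass the test. PRRX1-RE12 (0.08, SE 0.06), PAX9-RE9 (0.03, SE 0.06) and SIX2-RE22 (0.09, SE 0.05) also passed no test, with edgeR adjusted p of 0.39, 0.80 and 0.22.

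The promoter RE of PRRX2, PRRX2-RE23 (chr9:129665035-129665909), was higher, as was PAX3-RE18. PRRX2-RE23 ran from 3.68 to 14.03 CPM (median 11.7) at 0 nM and from 7.24 to 21.4 CPM (median 14.8) at 500 nM, with all 7 replicates higher (log2 fold change 0.62, SE 0.12, edgeR adjusted p = 3.3e-04). Its groups overlapped, and its level differed several-fold between replicates at each concentration. PAX3-RE18 (chr2:222298372-222299329), which also covers a start site of CCDC140, ran from 20.5 to 43.0 CPM (median 29.9) and then from 27.3 to 51.2 CPM (median 36.9), with 6 of 7 replicates higher (log2 fold change 0.26, SE 0.07, edgeR adjusted p = 0.011). At 16 nM neither passed the test (log2 fold changes 0.15 and 0.13, edgeR adjusted p = 0.57 and 0.39). PITX1-RE5 (log2 fold change 0.28, SE 0.13, edgeR adjusted p = 0.13) and BARX1-RE11 (−0.25, SE 0.13, edgeR adjusted p = 0.17) did not pass it at 500 nM.

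**Figure D4:**
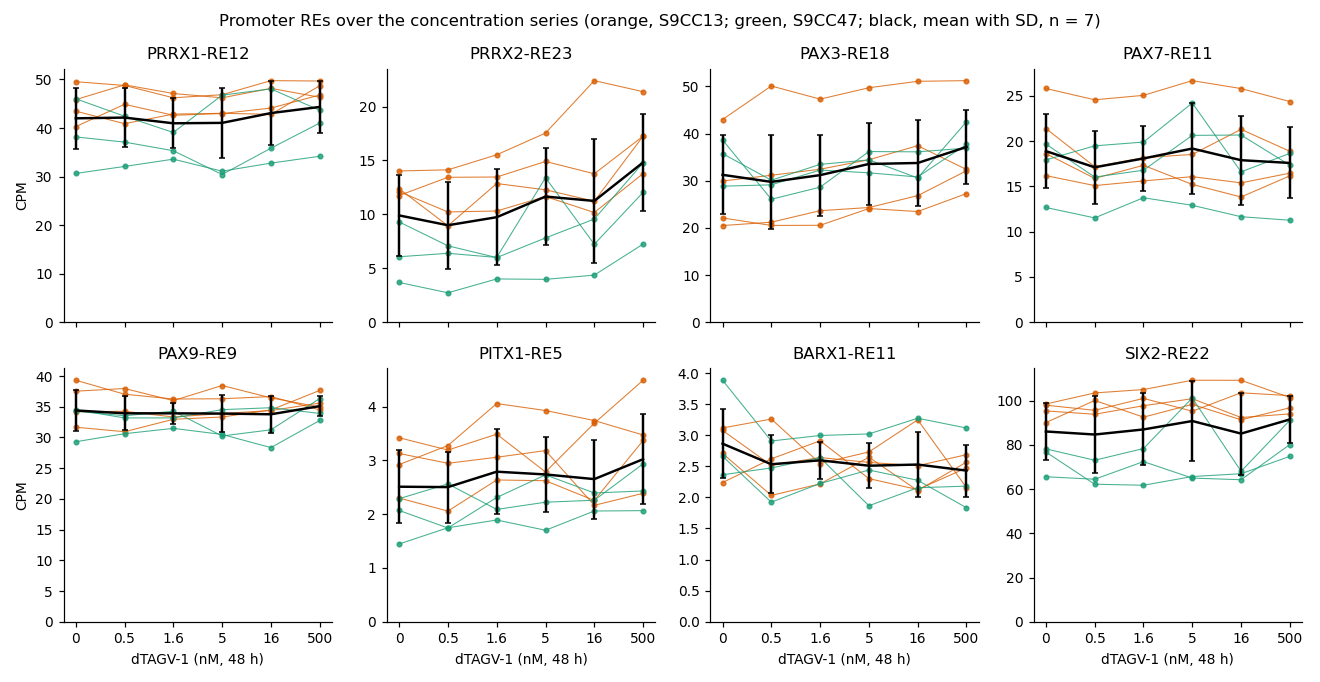
Accessibility in CPM of the most accessible promoter RE of each gene after 48 h at 6 concentrations of dTAGV-1, with a line per replicate (orange, S9CC13; green, S9CC47) and the mean with SD in black (n = 7). PRRX2-RE23 rose from a mean of 9.90 to 14.8 and PAX3-RE18 from 31.3 to 37.2, while PAX9-RE9 lay between 33.8 and 35.1 at every concentration.

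The time course asked how soon after full depletion the REs moved. The 3 h and 24 h samples were compared with the same 2 DMSO samples of each genotype. After 3 h, 15 members were lower and 5 higher in SOX9-tagged CNCCs, against 7.43% and 0.912% of all REs. After 24 h, 16 were lower and 11 higher, against 9.93% and 4.7%. With n = 2 these counts changed with single libraries. Leaving out 1 library lowered them in some cases, such as the DMSO library of R4 at both times, and raised them in others. Such a fit can leave 1 sample in a group, and the cause of the changes was not tested. DESeq2 called 10 at 3 h and 21 at 24 h, and its shares over all REs are not reported here. In simulated data of this design the test recovered 43% of REs changed by 1 on the log2 scale and 1% of those changed by 0.5. Those data held no batch differences and far fewer changed REs than were called here, so these shares need not hold for the real samples.

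SIX2-RE28 was at 4.22 and 5.77 CPM with DMSO, at 0.289 and 0.386 CPM after 3 h and at 0.248 and 0.664 CPM after 24 h. Every treated sample lay below both DMSO samples at 3 h and at 24 h (log2 fold changes −3.93, SE 0.32, and −3.56, SE 0.30, edgeR adjusted p = 7.6e-08 and 7.5e-08). In WT CNCCs the same RE was at 5.83 and 8.52 CPM with DMSO and at 5.63 and 7.18 CPM after 3 h. The difference between the effects in tagged and WT CNCCs was −3.79 (SE 0.36, edgeR adjusted p = 1.7e-07) at 3 h and −3.72 (SE 0.34, edgeR adjusted p = 4.8e-08) at 24 h, on the log2 scale.

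PITX1-RE8 was at 1.51 and 3.93 CPM with DMSO and at 0.352 and 1.02 CPM after 3 h, in the order R5, R4. Both treated samples lay below both DMSO samples at either time (log2 fold changes −2.06, SE 0.26, and −2.24, SE 0.26, edgeR adjusted p = 1.4e-05 and 3.9e-06). PRRX2-RE5 was at 14.4 and 18.1 CPM with DMSO, at 9.67 and 12.99 CPM after 3 h and at 6.18 and 7.08 CPM after 24 h, and none of these pairs overlapped. Its log2 fold changes were −0.59 (SE 0.11, edgeR adjusted p = 0.0012) at 3 h and −1.34 (SE 0.11, edgeR adjusted p = 6.6e-08) at 24 h, against −1.88 in the 48 h samples. Of the SOX9-tagged 48 h differentiations, only R5 shares its label with the time course.

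At PAX3 and PAX7, 8 intronic or flanking REs were lower at 3 h, among them PAX3-RE16 (log2 fold change −0.58, SE 0.08, edgeR adjusted p = 8.6e-05), PAX7-RE32 (−0.39, SE 0.08, edgeR adjusted p = 0.0015) and PAX7-RE18 (−0.65, SE 0.14, edgeR adjusted p = 0.0033). PAX3-RE16 was at 31.1 and 39.0 CPM with DMSO and at 24.0 and 24.9 CPM after 3 h, without overlap. In WT CNCCs it was at 32.4 and 36.3 CPM and then at 24.9 and 36.8 CPM, so that 1 WT sample was as low as the tagged ones. The difference between the effects in the genotypes at 3 h did not pass the test at PAX3-RE16 (−0.42 on the log2 scale, SE 0.16, edgeR adjusted p = 0.17). Nor did it pass at 3 h at PAX7-RE32 (−0.35, edgeR adjusted p = 0.27) or PAX7-RE18 (−0.70, edgeR adjusted p = 0.058).

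Not every PAX7 RE that was lower at 48 h was lower at 3 h. PAX7-RE4 had a log2 fold change of 0.30 at 3 h and was lower at 24 h (−0.77, SE 0.20, edgeR adjusted p = 0.012). In WT CNCCs its log2 fold change at 24 h was −0.57 (SE 0.20), lower in both pairs without passing the test. The difference between the effects in the genotypes at 24 h did not pass at PAX7-RE4 (−0.22 on the log2 scale, edgeR adjusted p = 0.80). PAX7-RE30 was higher at 3 h (0.37, SE 0.08, edgeR adjusted p = 0.0075) and lower at 48 h (−0.51, SE 0.07, edgeR adjusted p = 1.9e-06). Its samples at 3 h, 26.2 and 37.3 CPM, overlapped those with DMSO, 20.1 and 26.8 CPM. The reverse was found at PRRX1-RE4, which was lower at 3 h (−0.40, SE 0.10, edgeR adjusted p = 0.020; 18.6 and 20.1 CPM against 22.8 and 26.2 CPM with DMSO) and higher at 48 h. Of the 20 members called at 3 h, 15 were also called at 48 h, and PAX7-RE30 and PRRX1-RE4 were the ones that had changed direction. The matching shares over all REs called at 3 h are not reported here. Whether this overlap differs from the background was not tested. Also lower at 3 h were PRRX1-RE18 (−0.28, edgeR adjusted p = 0.027) and PRRX1-RE23 (−0.76, edgeR adjusted p = 0.0035), neither called at 48 h. At 3 h the difference between the genotypes did not pass at PAX7-RE30 (0.40, edgeR adjusted p = 0.17) or PRRX1-RE4 (−0.40, edgeR adjusted p = 0.34). It did not pass at PRRX1-RE18 (−0.28, edgeR adjusted p = 0.46) or PRRX1-RE23 (−0.74, edgeR adjusted p = 0.055) either.

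PAX9-RE15 was at 1.44 and 1.51 CPM with DMSO, at 1.73 and 1.83 CPM after 3 h (log2 fold change 0.21, SE 0.22, edgeR adjusted p = 0.73) and at 2.78 and 3.80 CPM after 24 h (1.09, SE 0.21, edgeR adjusted p = 9.6e-04). PRRX1-RE10 was called at 24 h (0.94, SE 0.20, edgeR adjusted p = 0.0031) and not at 3 h (0.38, SE 0.21, edgeR adjusted p = 0.39). BARX1-RE5 was already higher at 3 h (0.47, SE 0.13, edgeR adjusted p = 0.027), at 8.51 and 9.35 CPM against 6.01 and 6.29 CPM with DMSO. The promoter REs PRRX2-RE23, PAX3-RE18 and SIX2-RE22 were higher at 24 h (log2 fold changes 0.48, 0.40 and 0.26, edgeR adjusted p = 0.044, 0.0057 and 0.0091) and did not pass at 3 h (0.40, 0.02 and 0.04, edgeR adjusted p = 0.15, 0.95 and 0.84). In WT CNCCs their log2 fold changes at 24 h were 0.26, −0.14 and −0.08, and PRRX2-RE23 was higher in both WT pairs. The difference between the effects in tagged and WT CNCCs at 24 h did not pass at PRRX2-RE23, PAX3-RE18 or SIX2-RE22 (0.20, 0.52 and 0.31 on the log2 scale, edgeR adjusted p = 0.75, 0.069 and 0.32), nor did it at PAX9-RE15 (0.99, edgeR adjusted p = 0.056) or, at 3 h, at BARX1-RE5 (0.66, edgeR adjusted p = 0.075).

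**Figure D5:**
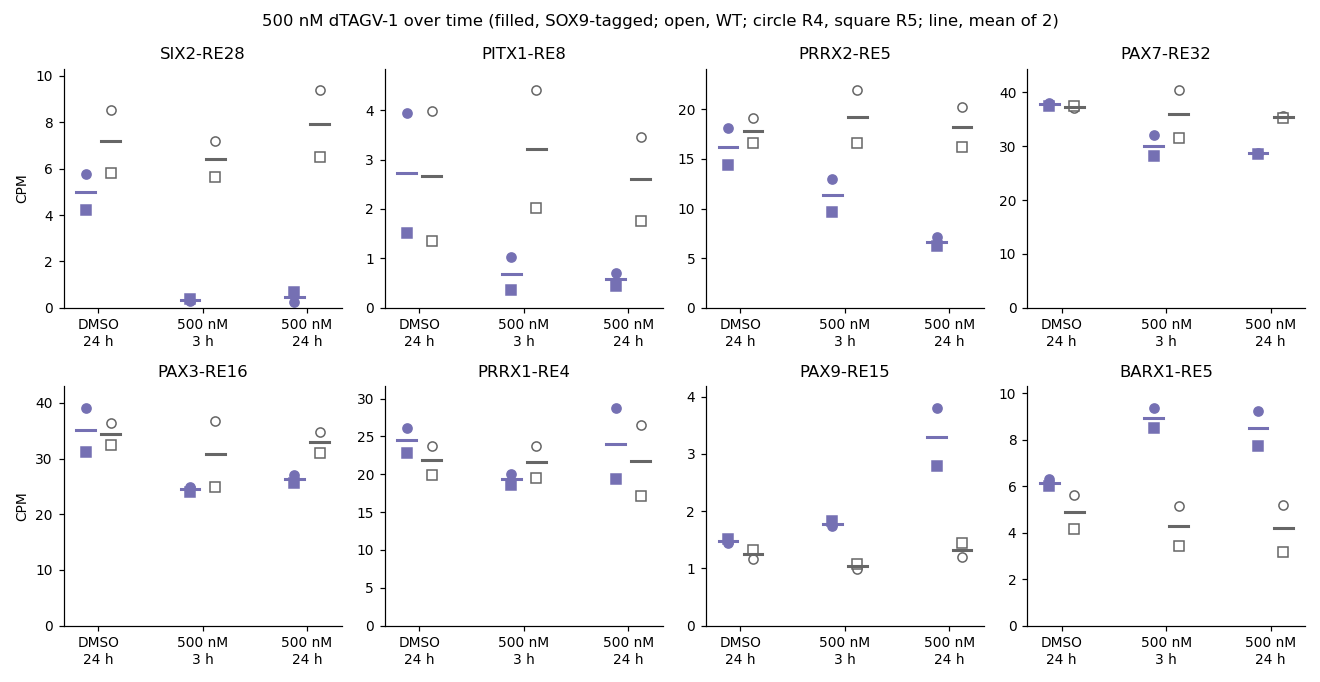
Accessibility in CPM of 8 REs after vehicle (24 h) or the degrader at 500 nM (3 h and 24 h), in SOX9-tagged (filled) and WT (open) CNCCs, with circles for R4, squares for R5 and a line at the mean of 2 samples. SIX2-RE28 was at 0.664 or below in all 4 treated SOX9-tagged samples and at 5.63 or above in the treated WT samples; PAX9-RE15 reached 2.78 and 3.80 in the SOX9-tagged samples at 24 h and at most 1.83 in the others.

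The difference between the genotypes was tested as an interaction. It passed at 4 members at 3 h (2.05%, against 5.2% of all REs), all with a lower effect in SOX9-tagged CNCCs: SIX2-RE28, PITX1-RE8, PRRX2-RE5 and PAX7-RE15. At 24 h it passed at 11 (5.64%, against 6.73%), 9 with a lower effect, 3 of them at PAX7, and 2 with a higher effect, PRRX1-RE10 and PRRX2-RE21. At 3 h the count was 2 without the DMSO library of R4 of either genotype or the SOX9-tagged 3 h library of R5, 7 without the WT 24 h library of R4, and 8 without the WT 3 h library of R4 or the WT 24 h library of R5. At 24 h it was 4 without the DMSO library of R4 of either genotype, 7 without the 24 h library of R4 of either genotype or the WT DMSO library of R5, and 17 and 19 without the WT 3 h libraries of R4 and R5.

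In WT CNCCs dTAGV-1 left the members without a call at 3 h and 24 h by edgeR and by DESeq2, against 0.0% of all REs, with 7 and 2 members at an unadjusted p below 0.05. For these unadjusted counts and that at 48 h below, chance also contributes, and the share of all REs is not reported here. Without the 3 h library of R4, edgeR called 6 members at 3 h, and at 24 h it called 1 without either 3 h library or without the 24 h library of R5. After 48 h, edgeR called 1 WT member, against 0.303% of all REs, with 21 at an unadjusted p below 0.05. It was SIX2-RE28, which was higher with 500 nM, at 6.24 and 6.91 CPM against 3.50 and 5.89 CPM without (log2 fold change 0.51, SE 0.13, edgeR adjusted p = 0.026). This is the opposite direction to SOX9-tagged CNCCs, and DESeq2 did not call it (adjusted p = 1.0), nor did edgeR without any single WT library in a fit of all 48 h samples.

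Without dTAGV-1, SOX9-tagged and WT CNCCs were compared within the 3 batches that held both. They differed at 2 members (1.03%, against 0.95% of all REs): PAX3-RE18 was higher in tagged cells (log2 fold change 0.46, edgeR adjusted p = 0.030) and SIX2-RE4 lower (−0.50, edgeR adjusted p = 0.047). DESeq2 called neither (adjusted p = 0.057 and 0.12), and edgeR called 0 without the 0 nM library of R8 of S9CC47 or the DMSO library of R5 of either genotype, 1 without the WT 0 nM library of R8, and 4 without the DMSO library of R4 of either genotype.

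For the promoter REs that rose, the most similar course over the 5 concentrations was sought among 3,894 promoter REs of other coding genes called at 500 nM, by the root mean square (r.m.s.) difference of the log2 fold changes. PAX3-RE18 was closest to promoter REs of GADD45A, a stress-response gene (r.m.s. difference 0.0127), and BCL11A, a transcriptional repressor gene (0.0161). PRRX2-RE23 was closest to those of TMOD3 (0.0342) and SYNDIG1 (0.0565). These differences were smaller than the SE of the log2 fold change of PAX3-RE18 or PRRX2-RE23 at each concentration. The order among close candidates is therefore uncertain, and shared regulation was not tested.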

How the data were processed

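ATAC-seq counts were analysed for 58 CNCC samples: 42 SOX9-tagged and 4 WT samples at 48 h and 12 samples of the time course. The deposited table holds raw counts, which the authors made by trimming reads with skewer, aligning them to hg38 with Bowtie2 (2.4.1 in the submitters' processing notes), and calling summits with MACS2 2.2.7.1; the notes also name SAMtools 1.10 and deepTools 3.5.0. Summits were extended and merged into 151,457 REs. The tool that counted reads over REs is not given in the sources used here. Because the REs were called across samples, weak REs of a single sample may be missing from them.

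Counts were tested in R 4.3.3 with edgeR 4.0.16 (TMM scaling, quasi-likelihood F test, no filter on low counts, differentiation batch as covariate), with Benjamini-Hochberg adjustment over all REs and a threshold of 0.05. Each dose was compared with 0 nM among the SOX9-tagged 48 h samples, and WT and time-course samples were fitted in their own models. CPM are TMM-scaled over the 58 samples. Replicates are separate differentiations or clones. Totals ranged from 22,905,782 to 81,040,023 counts per sample. In simulated data of the 500 nM comparison, 42% of REs changed by 0.5 and 100% of those changed by 1 on the log2 scale were recovered, with 5 false calls among 151,457 REs. The simulation gave every RE the same spread and held no batch or replicate differences. It changed 100 REs by each amount, far fewer than were called in the data. Its recovery shares therefore need not hold for the real samples. Counts of samples of 1 group were compared for possible duplicates, and in each of 134 pairs the reduced chi-square was 2.6 or more, above sampling noise. Same-numbered 48 h samples deviated together (correlation of deviations at least 0.16 in every pair), and the replicate number marks a shared clone and differentiation, so a fit with a replicate block was also made.

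Alternatives were DESeq2 1.42.0, RLE size factors, a filter on low counts, no batch term, the replicate block, leaving out each library, and a 50,000 bp window. Motif letters were searched with pysam 0.24.0 in hg38, and RE starts were written 1-based. Time-course columns of R5 name clone S9CC47 where the titles say S9CC13; they were matched by differentiation, treatment and time, and clone was not used there.

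Named REs were the most accessible promoter RE of each gene, the RE with the lowest adjusted p in each direction at each locus among those moving in 7 of 7 replicates at 500 nM, and up to 3 per other comparison. Other REs, such as PAX7-RE3, PAX7-RE4, PAX7-RE18, PAX7-RE30, PAX7-RE31, PAX3-RE2, PRRX1-RE10, PRRX2-RE7, PRRX2-RE18, PRRX2-RE28, PRRX2-RE30 and PAX9-RE4, were named after their values were seen. Other genes of the same families and 1 RE sequence are not reported here. The loci and the gene lists were chosen with earlier results of these data known.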

Additional observations from a re-analysis of the deposited data

Results flagged for a closer look

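Among 120 groups of named REs by concentration, 2 had a sample far from the others, where chance gives about 1 in 20 groups, or 6. PAX3-RE18 was at 50.1 CPM in replicate R6 of S9CC13 at 0.5 nM, the highest of 7. PAX9-RE15 was at 3.04 CPM in replicate R8 of S9CC47 at 0 nM, the highest of 7.

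At 15 RE and time combinations the effect of dTAGV-1 differed between SOX9-tagged and WT CNCCs by the interaction test of edgeR. At 3 h the differences in log2 fold change were −3.79 at SIX2-RE28, −2.39 at PITX1-RE8, −0.86 at PAX7-RE15 and −0.71 at PRRX2-RE5. At 24 h they were −3.72 at SIX2-RE28, −2.31 at PITX1-RE8 and −1.39 at PRRX2-RE5. The PAX7 REs had −1.08 at PAX7-RE18, −1.04 at PAX7-RE15 and −1.02 at PAX7-RE21. PAX3-RE2 had −1.02, PITX1-RE1 −0.91 and PRRX1-RE23 −0.74. PRRX1-RE10 had 1.23 and PRRX2-RE21 0.59, the only positive differences. SIX2-RE28, PITX1-RE8, PRRX2-RE5 and PAX7-RE15 were thus found at both times, which share the DMSO samples. At 3 h PAX7-RE15 lay close to the threshold (edgeR adjusted p = 0.047). The 3 h difference at PRRX2-RE5 no longer passed in some of the alternative fits.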

How the results depend on the processing

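Without the batch term fewer REs were called: 15 at 500 nM (11 lower and 4 higher), 7 at 16 nM, 2 at 5 nM, 0 at 3 h and at 24 h, 0 in WT at 48 h, 1 for the interaction at 3 h and 1 at 24 h, and 0 between tagged and WT CNCCs. With the replicate block the counts were 64, 48, 10 and 1 for 500, 16, 5 and 1.6 nM. DESeq2 called 10 at 3 h, 0 in WT at 48 h and 0 between tagged and WT CNCCs. The 50,000 bp window holds fewer REs: 18 at PRRX1, 20 at PRRX2, 25 at PAX3, 27 at PAX7, 10 at PAX9, 5 at PITX1, 10 at BARX1 and 12 at SIX2. Among these, 31 were called at 500 nM (18 lower and 13 higher), 10 at 16 nM, 1 at 5 nM and 13 at 3 h. It gave 0 in WT at 48 h, 1 and 6 for the interaction at 3 h and 24 h, and 1 between tagged and WT CNCCs. These are counts out of a smaller set, so a lower count need not be a lower share. Leaving out 1 library gave 40 to 56 at 500 nM (24 to 31 lower and 13 to 27 higher), 7 to 25 at 3 h, 10 to 37 at 24 h, 0 to 6 and 0 to 1 in WT at 3 h and 24 h, 0 to 0 in WT at 48 h, 2 to 8 and 4 to 19 for the interaction at 3 h and 24 h, and 0 to 4 between tagged and WT CNCCs; where this leaves 1 sample in a group, that sample is assumed to vary like the others. The cause of these changes was not tested, apart from the smaller number of REs or samples. Shares over all REs under these alternatives are not given here, so the changes need not be particular to the members. RLE size factors and the filter on low counts kept every count within 1.5 times of that reported. For named REs, no alternative that was run reversed a direction; 412 values kept their side of the threshold, 41 no longer passed it, and PITX1-RE5 passed it without replicate R13 of S9CC13 (log2 fold change 0.40, edgeR adjusted p = 0.031). SIX2-RE12 did not pass it at 500 nM without replicate R5 of S9CC47 (0.20, edgeR adjusted p = 0.062). Libraries were left out one at a time for 500 nM, WT and the time course only, not for the intermediate concentrations.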
